A study of Mus musculus with 6 samples.

Results

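The regions described here are Ring1b ChIP-seq peaks of hair follicle stem cells (HFSC) that overlap a Ring1b peak of intestinal stem cells (ISC). They were chosen from the authors' deposited peak lists by position: an HFSC peak entered when it shared at least 1 bp with an ISC peak, unless its midpoint lay in a 100-kb bin holding 5 or more peaks of each list, or in 1 of the 4 Hox gene cluster regions on chromosomes 2, 6, 11 and 15. Of 6754 HFSC peaks, 1720 overlapped an ISC peak and 1382 remained after 338 were left out, 89 of them in the Hox regions and the other 249 in clustered bins. The 1382 shared peaks touched 1396 of the 4444 ISC peaks.

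Ring1b is a ubiquitin ligase and, with its paralogue Ring1a, the catalytic core of Polycomb repressive complex 1 (PRC1). PRC1 places ubiquitin on histone H2A, and it gathers mainly at CpG-rich promoters of developmental regulators, which it helps to keep silent in cells that do not use them. Follicle stem cells renew the hair and intestinal stem cells at the crypt base renew the gut lining. Both express the Wnt-pathway receptor Lgr5, so a comparison of the cell types asks which Ring1b sites 2 epithelial stem cells of different organs hold in common.

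Both ChIP samples were wild type C57BL/6, from mice carrying Lgr5-GFP with intact Ring1a and Ring1b. The skin cells came from follicles synchronised in anagen, the growth phase, and the gut cells from intestinal epithelium. Living single GFP-positive cells were sorted, and each ChIP used 2500000 cells and 10 µg of an antibody made in the authors' laboratory. There was 1 library per cell type, so no difference between the cell types has a replicate check, no test was run, and a peak absent from a list is a peak that did not pass the caller's threshold there. Peaks of 1 library share their source and are not replicates. The labels do not say how many mice gave the cells, and the peak lists hold no expression values by which the sorted cell type could be checked. Peaks are given by position on mm9, 1-based. No mm9 genome or gene annotation was used here, so the peaks carry no gene names, promoter or intron labels, or sequence.

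Each peak carries 2 linked heights. The fold is the authors' ratio of signal at the summit, the highest point of the peak, to the caller's local background. The number of overlapping fragments at the summit was worked back from the authors' fold and p-value, as described in the processing notes, and came out whole for all 6754 HFSC and all 4444 ISC peaks. These counts set the depth behind each peak. The shared peaks had a median of 15 fragments at the HFSC summit, with quartiles of 13 and 18 and a range of 8 to 400. Their partners had a median of 13 in the ISC list, with quartiles of 12 and 15 and a range of 9 to 243. A count of 15 has an exact Poisson 95% interval of 8.40 to 24.7, a range for counting alone, because duplicates made by PCR add no new molecules. The Wilson intervals below have another limit. They treat peaks as independent draws, though peaks of a library that lie close together or share a partner are not independent. They describe the shares and give no test, also where they are said to overlap. The counts of 1309 of the 1382 shared peaks (94.7%) lay inside the Poisson interval of a count of 15. That interval does not compare 2 peaks with each other. At this depth, ranks by height among most shared peaks carry a wide counting error, and the fold also depends on the local background.

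The shared peaks were slightly taller and clearly wider than HFSC peaks with no ISC overlap outside the same bins and regions (4812 peaks). The median fold was 6.47 against 6.22, the median summit count 15 against 13 fragments, and the median local background 1.41 against 1.19 fragments. The median width was 339 bp against 275 bp, and the upper quartiles were 482 and 367 bp. In the ISC list the partners had a median fold of 5.82, 13 fragments and a width of 302 bp, where the 2483 ISC peaks with no HFSC overlap had 5.58, 12 fragments and 254 bp. Shared peaks that had been left out because of clustering or Hox position stood above both classes in the HFSC list, with a median fold of 7.70, 17 fragments and a width of 463 bp (338 peaks). These values describe how peaks of the classes differ within each library. Height and width bear on whether a peak is called and whether it meets another by 1 bp, so the classes are not independent of them.

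**Figure D1:**
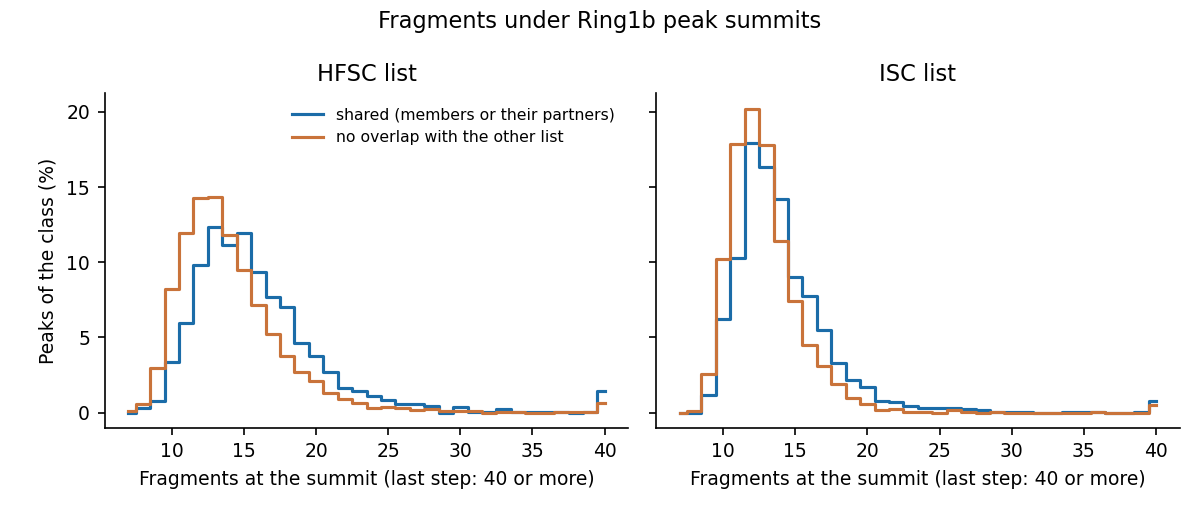
Fragments at the summit (x axis, fragments; the last step holds 40 or more) as a percentage of peaks in each class (y axis), for shared peaks or their partners and for peaks with no overlap, outside clustered bins and Hox regions. The shared peaks lie a little to the right, with medians of 15 against 13 in the HFSC list (left) and 13 against 12 in the ISC list (right).

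The share of HFSC peaks that met an ISC peak went up with the number of fragments. Outside the left-out bins and regions it was 7.81% of the 192 peaks with 9 or fewer fragments (Wilson 95% interval 4.79 to 12.5%) and 11.7% of the 1098 peaks with 10 or 11. It was 23.8% at 14 or 15 fragments, 30.4% at 16 to 19 and 36.8% at 20 to 29 (181 of 492 peaks, 32.6 to 41.1%). Above that the classes were small: 21 of 45 peaks with 30 to 49 fragments were shared, and 14 of 38 with 50 or more. Of these 14, 9 had a local background of 8 fragments or more, with folds of 2.09 to 8.53. In that class a high count therefore did not always go with a high fold. The same held seen from the intestine, where the share went from 24.9% of ISC peaks at 10 or 11 fragments to 67.0% at 20 to 29 (69 of 103 peaks, 57.4 to 75.3%), and was 10 of 20 at 50 or more.

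Width showed a like gradient. Of HFSC peaks of 200 to 249 bp, 15.0% were shared, against 42.6% at 600 to 999 bp and 54.0% at 1000 bp or more (47 of 87 peaks, 43.6 to 64.1%). Of ISC peaks of 1000 bp or more, 34 of 42 were shared (81.0%, 66.7 to 90.0%). At equal height the gradient with width was still seen where counts were moderate. Among HFSC peaks with 16 to 19 fragments, 24.6% of those of 200 to 299 bp were shared (20.8 to 28.9%) and 38.2% of those of 400 bp or more (34.0 to 42.5%). Among those with 10 or 11 fragments the shares were 11.4% and 12.3%, with overlapping intervals. A wider peak has more bases with which to meet another by 1 bp, and the part of this in the gradient was not tested.

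**Figure D2:**
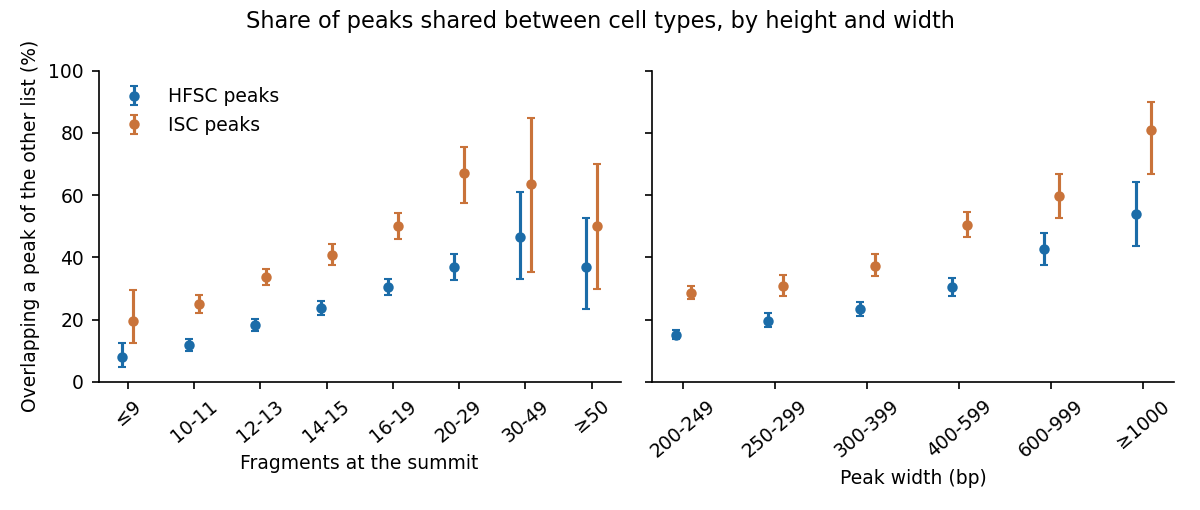
Percentage of peaks overlapping the other list (y axis) by fragments at the summit (left) and by peak width in bp (right), for HFSC and ISC peaks outside clustered bins and Hox regions; bars are Wilson 95% intervals. The HFSC share goes from 7.81% at 9 or fewer fragments to 36.8% at 20 to 29, and from 15.0% at 200 to 249 bp to 54.0% at 1000 bp or more. In both lists the class of 50 or more fragments includes sites of high local background.

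The positions of the paired peaks are given as a description. The rule asked for an overlap, and with median widths of 339 and 302 bp it already limits how far apart summits can lie, so these distances are no separate evidence that the sites coincide. The median overlap was 210 bp, which was 61.0% of the HFSC peak and 64.8% of the ISC peak, and 86.1% of whichever was shorter. The ISC peak lay wholly within the HFSC peak at 264 sites and the reverse held at 198. Summits were a median of 121 bp apart, within 50 bp at 322 sites (23.3%), within 250 bp at 1131 (81.8%) and within 1000 bp at 1371 (99.2%). The signed offset, ISC minus HFSC along the chromosome, had a median of -5 bp with quartiles of -124 and 117 bp, so neither list lay to one side. Each summit fell inside the other peak at 754 sites (54.6%), and neither did at 225 (16.3%). At most sites the pairing was simple: 1300 peaks met 1 ISC peak, 80 met 2, 1 met 3 and 1 met 4, while 62 ISC partners met 2 shared peaks, 3 met 3 and 1 met 4.

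**Figure D3:**
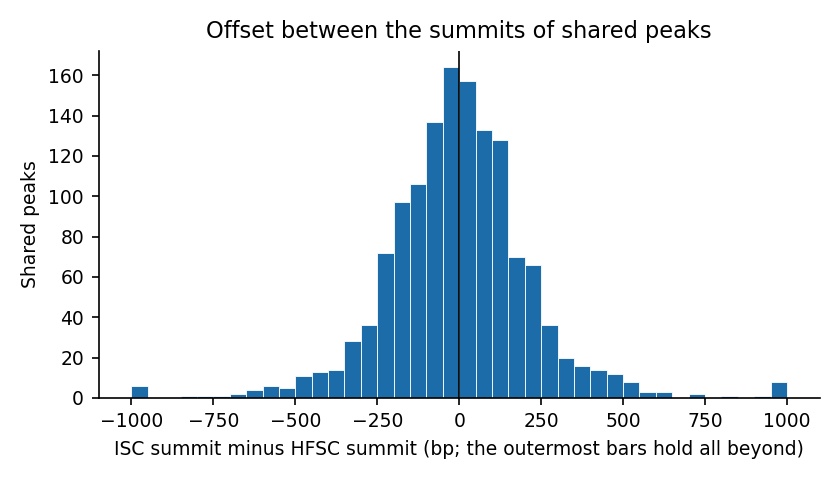
Distance from the HFSC summit to the summit of the ISC partner (x axis, bp, in 50-bp bars) against the number of shared peaks (y axis). The offsets centre near 0, with a median of -5 bp, and 81.8% lie within 250 bp.

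Summit distance is also bounded by width, and weak peaks were narrow, so the distances of weak and strong peaks cannot be compared as precision of position. Leaving out sites with a high local background, the median summit distance was 113 bp where the smaller of the 2 counts was 8 to 11 fragments (339 sites) and 136 bp where it was 20 to 29 (26 sites). Peaks grew wider over the same classes, from a median of 289 to 740 bp in HFSC and from 253 to 789 bp in ISC. The share of sites where each summit lay inside the other peak went from 48.7% (43.4 to 54.0%) to 76.9% (57.9 to 89.0%). In the 7 sites with a smaller count of 30 or more, the summits were a median of 86 bp apart and the HFSC peaks a median of 2054 bp wide.

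Height in the 2 lists was only weakly correlated across the shared peaks. Across the 1382 shared peaks the fold in the 2 lists had a Pearson correlation of 0.23 on the log2 scale and a Spearman correlation of 0.096. The sites share an antibody and a caller, and whether they share a control library is unknown here, so these are descriptions without a test. The low counts, the calling threshold and tied folds also bear on these correlations, and their part was not tested. Among the ISC partners the lowest local background and its lower quartile were both 1.23 fragments. Partners at that background with equal counts have nearly the same fold. Of the 100 shared peaks with the highest fold in each list, 25 were the same sites. At or above the 75th percentile of its own whole list by fold stood 416 shared peaks in HFSC and 463 in ISC. These were 30.1% and 33.5% of the shared peaks, against about 25% of each whole list. The ISC figure takes the partner of highest −log10 q for each shared peak. An ISC peak met by several shared peaks counts each time there, and once in the whole list. In both lists 158 shared peaks stood at or above that percentile, and 661 did so in neither. The overlaps that such shares alone would give were not computed, so no agreement is drawn from the counts in both lists. The correlation was higher under a limit on −log10 q. At a limit of at least 5 in both lists it was 0.35 (850 sites), and at 10 it was 0.66 (106 sites). The q-value and the fold are computed from the same counts, so such a limit also selects on height. Sites of high local background pass both limits, for example chr9:35112727-35113190 with folds of 2.19 in HFSC and 3.52 in ISC. The correlation at these limits without such sites was not computed, so the rise is not read as better support.

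**Figure D4:**
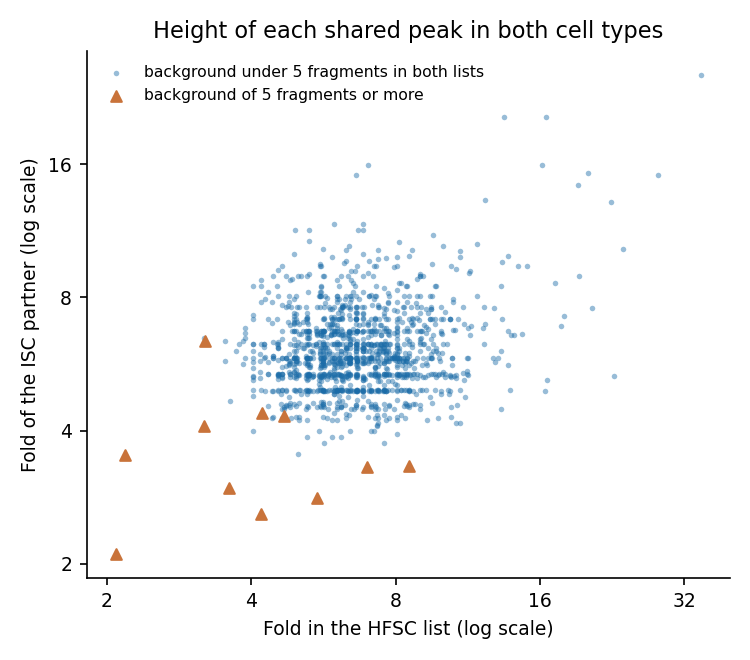
Fold of each shared peak in the HFSC list (x axis, log scale) against the fold of its ISC partner of highest −log10 q (y axis, log scale); triangles have a local background of 5 fragments or more in either list. Most points form a cloud without a clear slope around 6.47 in HFSC and 5.82 in ISC (the medians of the shared peaks and of their partners), a few sites are high in both, and 10 of the 11 triangles lie at or below 4.39 in ISC.

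Only a small number of shared peaks were tall in both cell types. A summit count of 30 or more was reached by 35 sites in HFSC, 21 in ISC and 16 in both. In 7 of these 16 the local background was under 5 fragments in both lists. The tallest was chr11:21892716-21894769, 2054 bp wide, with a fold of 34.6 from 67 fragments (exact Poisson interval 51.9 to 85.1) in HFSC. Its ISC partner had a fold of 25.5 from 58 fragments (44.0 to 75.0), with the summits 16 bp apart. It held the highest fold of the whole HFSC list.

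Among the shared peaks the next highest HFSC fold was on chromosome 4. At chr4:115610666-115612560 the fold was 28.2 from 69 fragments in HFSC and 15.2 from 39 in ISC, with summits 38 bp apart. At chr4:114728895-114731332, among the 4 widest shared peaks at 2438 bp, it was 19.3 from 54 fragments and 14.4 from 44. A further site on that chromosome, chr4:134706840-134708292, stood at nearly equal fold in both cell types, 16.2 from 32 fragments in HFSC and 15.9 from 35 in ISC, with summits 6 bp apart.

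The remaining 3 were on other chromosomes. The peak chr2:158437675-158438812 had a fold of 22.5 in HFSC and 13.1 in ISC, from 55 and 31 fragments. The peak chr3:107398274-107400621 had 20.1 and 15.3, from 52 and 36 fragments. At chr9:55391440-55394715 the order was turned, with 16.5 in HFSC from 46 fragments (33.7 to 61.4) and 20.5 in ISC from 59 (44.9 to 76.1). Its ISC partner was 5111 bp wide and also covered the neighbouring shared peak chr9:55389456-55390889, which had a fold of 13.4 from 27 fragments in HFSC. Folds of different libraries rest on different depths and backgrounds, so these pairs are set side by side and not ranked against each other.

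The other 9 of the 16 tall sites, and 11 shared peaks in all, had a local background of 5 fragments or more in at least 1 list, 10 of them in both. This cutoff was chosen after the values were seen. They include the 3 highest −log10 q values of the shared peaks in the HFSC list, while the highest partners in the ISC list by −log10 q, at chr11:21892716-21894769 and chr9:55391440-55394715, had low backgrounds of 1.31 and 1.93 fragments. The adjoining peaks chr17:39979839-39983902, the widest of all at 4064 bp, and chr17:39983955-39985885 each had 400 fragments at the HFSC summit over backgrounds of 56.4 and 46.0, with folds of 6.98 and 8.53 and −log10 q values of 187 and 217. Their ISC partners had folds of 3.30 and 3.32, at percentiles of 0.540 and 0.563 of the ISC list by fold, over backgrounds of 61.7 and 60.4 fragments. The peak chr11:108872894-108873470 had 292 fragments over a background of 52.3 and a fold of 5.49 in HFSC, and 2.81 in ISC.

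High counts went with low folds at further sites. At chr9:35112727-35113190 the HFSC fold was 2.19 with 264 fragments over a background of 120, and the ISC fold was 3.52 with 243 over 68.2. The peak chr2:98506271-98507486, among the 6 highest shared sites by ISC −log10 q, had folds of 3.19 and 4.10 over backgrounds of 73.9 and 52.7 fragments, and 2 further shared peaks lay just before it, at 98502327 and 98503837, with HFSC folds of 3.60 and 2.09. These 11 sites are 0.796% of the shared peaks. Without peaks of such background in either list there were 1371 shared peaks and the correlation of fold was 0.20, close to its value with them. Ranking by −log10 q places 3 of them first in HFSC, and ranking by fold places none of them among the 8 highest.

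Some paired peaks stood at opposite ends of the lists. The 3 shared peaks that went down most from their HFSC to their ISC percentile by fold were chr8:63111387-63111767, chr4:55362453-55363092 and chr15:38944121-38944528. Their folds were 10.7, 13.2 and 10.5 in HFSC, at percentiles of 96.2, 98.8 and 95.7, and 4.17, 4.48 and 4.30 in ISC, at percentiles of 2.37, 5.81 and 3.99. The counts were 20 against 10 fragments, 27 against 9, and 25 against 13. The paired summits lay 194, 512 and 46 bp apart, with overlaps of 73, 103 and 243 bp. At the second of these the ISC peak was 250 bp wide, so the HFSC summit lay outside it. These sites were named for their change of rank, and the libraries' depths are unknown, so the counts are set side by side and no difference is drawn from them. In the opposite direction stood chr9:118059247-118059474, chr8:73062533-73062760 and chr9:66682821-66683054, with folds of 4.03, 4.20 and 4.20 in HFSC and 8.51, 8.76 and 8.51 in ISC. Their summits were 6, 7 and 112 bp from those of their ISC partners. The first of them had 18 fragments in both lists, over a background of 3.71 in HFSC and 1.23 in ISC. At that site the backgrounds differed and the counts did not. The second had 11 fragments in HFSC and 19 in ISC, over backgrounds of 1.86 and 1.28. The third had 11 and 18, over backgrounds of 1.86 and 1.23. The change of percentile was smaller, from 99.9 to 30.4, at chr11:33102933-33104784, with a fold of 22.9 from 47 fragments (34.5 to 62.5) in HFSC and 5.30 from 13 (6.92 to 22.2) in ISC. The summits there were 246 bp apart, and this site was picked after its values were seen.

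Shared peaks lay mostly alone. Joined where less than 10 kb apart, the 1382 peaks formed 1200 separate sites, of which 1077 held 1 shared peak (77.9% of the peaks), 84 held 2, 28 held 3 and 11 held 4 to 7. The distance from a shared peak to the nearest other HFSC peak of any class had a median of 32420 bp, against 31731 bp for HFSC peaks with no ISC overlap. Another HFSC peak lay within 500 bp of 23.3% of the shared peaks (21.1 to 25.6%) and of 19.5% of the others (18.4 to 20.7%), and within 10 kb of 36.0% and 38.3%. The removal of bins dense in both lists bears on these shares.

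The longest run, by number of shared peaks, held the tallest site. Between positions 21892716 and 21903990 of chromosome 11, over 11275 bp, all 7 HFSC peaks were shared, and 10 ISC peaks fell in the same span. Their HFSC folds, in order along the chromosome, were 34.6, 12.3, 5.70, 7.70, 9.74, 15.0 and 10.5, and the ISC partners stood at 25.5, 13.3, 7.76, 7.76, 6.06, 9.45 and 9.45, the repeated values being ISC peaks that met 2 HFSC peaks each. In the same order the paired summits were 16, 826, 598, 1675, 111, 952 and 138 bp apart. The folds of the more distant pairs therefore do not belong to the same point. Both lists were highest at the first peak of the run. The second run, on chromosome 4 from 134706430 to 134711458, held 6 shared peaks of 7 HFSC peaks but only 3 ISC peaks in 5029 bp. Each ISC peak overlapped 2 of the shared peaks, 1 of them by only 40 bp. HFSC folds there went from 5.70 to 16.2 and ISC folds from 6.16 to 15.9. The third, on chromosome 1 from 57026386 to 57034810, was 1 of 4 runs of 5 shared peaks and had the largest span of these, 8425 bp. It held 5 shared peaks of 7 HFSC peaks, with HFSC folds of 6.30 to 10.5 and ISC folds of 5.38 to 6.76. Of the 100-kb bins, 7 held 5 or 6 shared peaks and were kept because their ISC peaks numbered 3 or 4.

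The shared peaks were spread over all autosomes and the X chromosome. Outside the left-out bins and regions, the share of HFSC peaks that were shared ran from 18.3% on chromosome 2 to 26.1% on chromosome 11, with a median of 23.2% over the autosomes. Chromosome 11 held the most shared peaks, 134 of 514, and chromosome 16 the fewest of the autosomes, 40 of 206. On the X chromosome 6 of 64 HFSC peaks were shared (9.38%, Wilson interval 4.37 to 19.0%), against 1376 of 6130 on the autosomes (22.4%, 21.4 to 23.5%). X-linked HFSC peaks also had lower counts, with a median of 11 fragments where the autosomes had 13 to 14. Among peaks with 11 or fewer fragments the shares were 2 of 38 on the X chromosome (1.46 to 17.3%) and 142 of 1252 on the autosomes (11.3%, 9.70 to 13.2%), and these intervals overlap. The part of the lower counts in the X-linked share was not tested. From the intestine, 6 of 18 X-linked ISC peaks and 36.0% of autosomal ones met an HFSC peak. The tallest shared X-linked sites were the neighbours chrX:91610980-91611733 and chrX:91612053-91612697, with HFSC folds of 9.43 and 9.66 and an ISC fold of 7.17 at both.

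**Figure D5:**
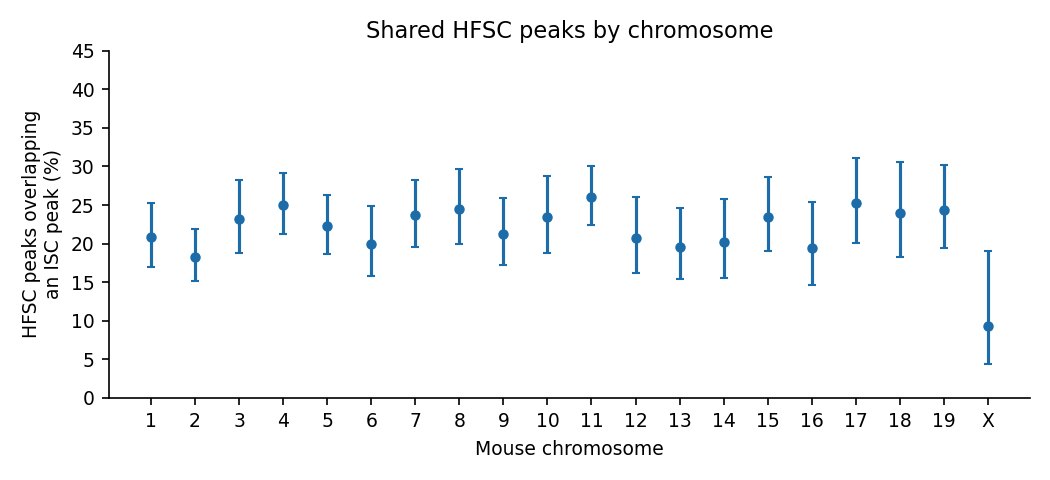
Percentage of HFSC peaks overlapping an ISC peak (y axis) on each chromosome (x axis), outside clustered bins and Hox regions, with Wilson 95% intervals. The autosomes lie between 18.3% and 26.1%, and the X chromosome at 9.38% with an interval of 4.37 to 19.0%.

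At the edge of the rule, 17 shared peaks overlapped an ISC peak by 10 bp or less and 100 by under 50 bp. The 3 with the smallest overlap shared 1 bp: chr5:29704613-29704890, with a fold of 5.03 in HFSC and 5.34 in ISC, chr10:79243003-79243214, with 3.89 and 6.48, and chr6:91634049-91634343, with 6.44 and 6.65. Just outside, 11 HFSC peaks had a gap of 10 bp or less to an ISC peak and 54 had a gap under 50 bp. The nearest of them were chr2:116945938-116946199 at a gap of 1 bp, chr4:48137941-48138152 at 3 bp and chr12:70259831-70260054 at 4 bp, with folds of 4.69, 6.04 and 6.03. An ISC peak lay within 500 bp of 335 of the 4812 HFSC peaks with no overlap (6.96%) and within 10 kb of 919 (19.1%), and the median distance was 101768 bp. For the limit on bins, 38 bins fell just short, with 4 peaks in the list that had fewer, and held 110 of the shared peaks, while 15 bins just met it with 5 and held 53 HFSC peaks with an ISC overlap.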

How the data were processed

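Of 6 samples, the 2 Ring1b ChIP-seq peak lists were used. The submitters' processing notes name MACS2 2.1.1, Bowtie 1.2.2 and Picard 1.62 with build mm9; their roles and settings, the control and the library depth are unknown here. Each deposited list gives per peak a score (10 times its −log10 p-value, found on the values), a fold ratio over the caller's background, the −log10 of its p-value and q-value, and the summit. These values are the authors' own. They rank peaks within a list.

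Peak overlaps, shares with Wilson 95% intervals and distances were computed in Python 3.11.15 with pandas 2.3.3 and scipy 1.17.1. Fragments at a summit were solved from the deposited fold and p-value on the assumption, stated in no source used here, that fold is (fragments + 1) over (background + 1), and p is the Poisson tail above the count. Every peak matched a whole number within 0.001 in −log10 p, and 1 HFSC peak matched a second. The method was also run on simulated data made with the same formulas. That run checks the solving step and cannot check the assumption. The partner of a peak is its ISC peak of highest −log10 q.

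Regions were named by rule: the 6 highest shared peaks by −log10 q in each list, the 4 widest, 3 each with the largest change of fold percentile in either direction, the 3 smallest overlaps and the 3 longest runs under 10 kb. Tall low-background sites, high-background sites and X-linked sites were added after their values were seen. Chromosome 18 was passed over in naming. The members and lists were chosen with earlier results of these data known. The planned RNA comparison of genes at these peaks was not run, since no mm9 annotation was used here. Alternatives covered overlap, peak threshold, bin limit and the correlation.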

Additional observations from a re-analysis of the deposited data

How the results depend on the processing

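The share of HFSC peaks meeting an ISC peak, 25.5%, depended on the overlap asked for. Shares here are of all HFSC peaks of a setting. Numbers of shared peaks are those outside the left-out bins and Hox regions. It was 20.9% with an overlap of at least 50% of the shorter peak, 12.4% with 50% of both peaks (692 shared peaks), 18.1% with the HFSC summit inside the ISC peak, 31.5% with ISC peaks extended by 500 bp, and 20.4% with summits within 250 bp, which was added with the values known. It was 25.4% without peaks of a background of 5 fragments or more, also added then. A −log10 q of at least 5 in both lists gave 19.3% (1040 of 5394 HFSC peaks) and 850 shared peaks. A −log10 q of at least 10 gave 9.07% (125 of 1378 HFSC peaks) and 106. These limits left 2600 and 291 of the 4444 ISC peaks to be met. The shares at these limits are therefore not read as strong peaks being shared less often. Lists of equal size gave 28.6%. The ratio of median width, shared over not shared, was 1.23, and became 1.98 at a −log10 q of 10 and 1.16 with summits within 250 bp. The ratio of median fold was 1.04, and became 1.24 at a −log10 q of 10. The correlation of log2 fold, 0.23, was 0.38 with 50% of both peaks, 0.28 with the summit inside, 0.35 and 0.66 at a −log10 q of 5 and 10, 0.29 in lists of equal size, 0.16 with bins left out at 3 peaks, 0.29 with bins left out at 8 or none, and 0.096 by rank. It stayed positive in all of these, and the cause of each shift was not tested. No paired analysis was possible because there was 1 library per cell type and no test was run. The RNA alternatives were not run. Depth limits single peaks: at 15 fragments the counting interval is 8.40 to 24.7.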

Other observations

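The ISC list holds 5 peaks on the mitochondrial chromosome, where the HFSC list holds 0. Of the 48 HFSC peaks with a local background of 5 fragments or more, 14 overlapped an ISC peak (29.2%, Wilson 95% interval 18.2 to 43.2%), against 25.4% among HFSC peaks below that background when ISC peaks of high background were left out too.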
